A study of Rattus norvegicus with 15 samples.

Results

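The genes described here are those whose mean RNA level at the hyperplastic stage of the rat adrenal medulla lay above, or below, both the level in normal medulla and the level in pheochromocytoma. They were chosen on the measured values themselves. Of 1435 genes that the authors listed as changed both between hyperplasia (HYP) and wildtype (WT) and between pheochromocytoma (PCC) and HYP, 1393 are autosomal and 1346 reached a group mean of at least 1 FPKM (fragments scaled to gene length and library size). A gene was taken when its HYP mean was at least 1.5 times both other means, or at most the same fraction of both. This gave 74 genes of 1346, or of the 8621 genes listed in any comparison: 47 peaked at HYP and 27 dipped.

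Adrenal medullary tissue of 15 rats was sequenced once the cortex had been macrodissected away, with 5 animals in each group. The WT group was normal adrenal medulla of wildtype rats aged 7 to 9.5 months, the HYP group hyperplastic medulla of MENX rats aged 4 to 5 months, and the PCC group pheochromocytoma of MENX rats aged 7 to 9.5 months. By the methods, the PCC group holds both PCCs and advanced PCCs, divided by adrenal weight, and the labels do not tell which samples are which, so that grade cannot be told apart from other differences among PCC samples. All animals carry the strain label Sprague-Dawely, and MENX rats have a spontaneous frameshift mutation in *Cdkn1b*, the gene of the cell cycle inhibitor p27. The HYP rats were thus younger than both groups they are compared with, so that stage and age cannot be told apart in any gene of the set. The RNA is of bulk tissue, in which fewer cells of a type and less RNA per cell cannot be told apart.

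Chromaffin cells of the adrenal medulla derive from the neural crest, make catecholamines and release them under the control of nerves and circulating peptides. Their surface therefore carries receptors for peptides, amines and trophic factors, and a transporter that takes noradrenaline back up. Hyperplasia is an expansion of these cells that precedes the tumor in MENX rats.

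Between 16315018 and 23831269 reads per sample fell on genes. Markers of chromaffin cells (15 genes, none of them in the set) were present in all samples and rose with stage, their median level relative to the WT mean being 1.00 ± 0.455 for WT, 2.38 ± 0.298 for HYP and 4.50 ± 0.585 for PCC (SD, n = 5). Markers of the adrenal cortex (14 genes) fell from 0.990 ± 0.317 to 0.475 ± 0.0971 and 0.200 ± 0.147, with a level above 0 in all samples. The amount of cortex in the samples was not tested. Exact permutation tests over samples, two-sided, gave p = 0.0079 for both chromaffin steps and for WT to HYP in the cortex, and p = 0.0159 for HYP to PCC in the cortex (adjusted p = 0.0147 and 0.0224 over 24 tests). The sample WT5 stood apart with a chromaffin level of 0.280, against 0.913 to 1.46 in the other WT samples, and with the highest cortex level, 1.35. It was the lowest WT sample in 30 of the 47 peaking and in 21 of the 27 dipping genes. PCC4 was the lowest PCC sample in 25 peaking genes and the highest in 20 dipping genes.

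**Figure D1:**
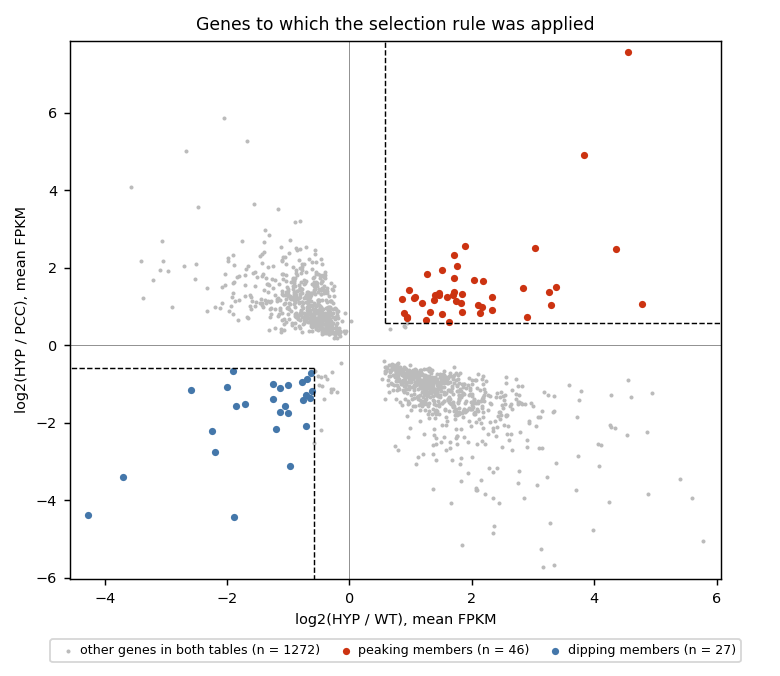
Log2 ratio of the mean FPKM of HYP to WT (x axis) and of HYP to PCC (y axis) for the genes to which the rule was applied, 1 point a gene, with the 1.5-fold limits as dashed lines. The 47 peaking genes lie at the upper right (1 of them, without a read in WT, is not drawn) and the 27 dipping genes at the lower left, while most of the 1346 genes lie at the upper left or the lower right, where the mean moves one way over all 3 stages.

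**Figure D2:**
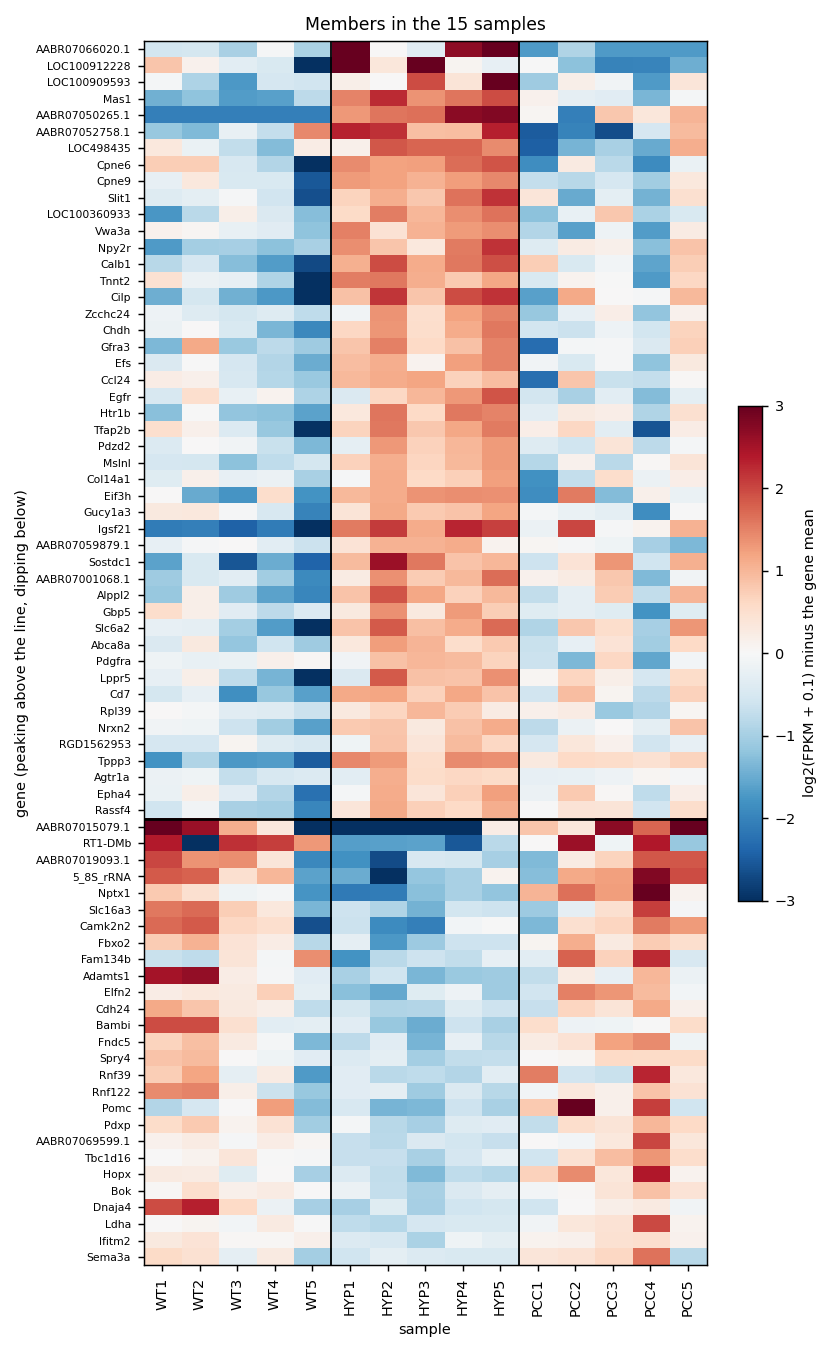
Level of all 74 genes in the 15 samples, as log2(FPKM + 0.1) minus the mean of the gene, with peaking genes above the horizontal line and dipping genes below it. WT5 is the palest or bluest WT column in many rows, and PCC4 is the darkest red PCC column in 20 of the 27 dipping genes.

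Among the peaking genes 43 are protein coding and 4 are lincRNA genes, and 37 have a gene symbol. The dipping genes comprise 23 protein coding genes, 2 miRNA genes, 1 rRNA gene and 1 processed pseudogene. The median ratio of means was 3.33 for HYP over WT and 2.39 for HYP over PCC in the peaking genes. In the dipping genes it was 2.19 for WT over HYP and 2.65 for PCC over HYP. These ratios describe how the genes were chosen and carry no test. Just inside the limit of 1.5, the smaller ratio was 1.52 in *Rassf4*, 1.57 in *Epha4* and 1.62 in *Agtr1a*, and just outside it was 1.496 in *Mical2*, 1.42 in *Igsf10* and 1.39 in *Mtss1l*. On the dipping side *Sema3a* (1.52), *Ifitm2* (1.54) and *Ldha* (1.57) were just inside, and *Nbl1* (1.494), *Tuba1b* (1.42) and *Tmem160* (1.41) just outside. With each sample left out in turn, 41 of the 47 peaking and 23 of the 27 dipping genes met the rule every time. The peaking genes that dropped out at least once were *Rassf4*, *Epha4*, *Agtr1a*, *Lppr5*, *Npy2r* and LOC100909593, and the dipping ones *Sema3a*, *Dnaja4*, *Ifitm2* and *Pomc*.

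A mean can be set by a few animals, so the samples were compared directly. On CPM scaled by TMM, every HYP sample lay above all 10 other samples in 17 of the 47 peaking genes. The same was true of 26 of 5492 genes with values in all samples (0.473%), a share shown beside the count only because the rule used the same values. Every HYP sample lay below all others in 5 of the 27 dipping genes, beside 8 of 5492 genes (0.146%). On FPKM the counts were 13 and 5. Without HYP1, the lowest HYP sample in 23 peaking genes, the peaking count was 27. The dipping count was 9 without WT5, 9 without HYP1 and 8 without PCC1.

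Promoters are shown for 4 genes that hold the letters TGACG, which begin the cyclic AMP response element TGACGTCA, because of the motifs searched these letters differed most in share between dipping and peaking genes. They are the only peaking gene and 3 of the 8 dipping genes with them, chosen after their values were seen. The sequences are from RefSeq on GRCr8, run from 250 bases before to 50 after the start of the gene on the strand of the gene, and have capitals at TGACG on either strand, at the whole response element, at the E-box CACGTG, at the TATA box letters TATAAA and at CCAAT on either strand.
*Ldha* chr1:106507842-106508141 (+): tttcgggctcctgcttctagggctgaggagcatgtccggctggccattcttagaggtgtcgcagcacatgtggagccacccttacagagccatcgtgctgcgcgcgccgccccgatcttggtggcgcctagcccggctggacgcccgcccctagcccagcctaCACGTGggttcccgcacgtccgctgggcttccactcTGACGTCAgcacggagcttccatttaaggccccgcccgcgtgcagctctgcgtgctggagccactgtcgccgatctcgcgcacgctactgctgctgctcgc
*Adamts1* chr11:38427335-38427634 (-): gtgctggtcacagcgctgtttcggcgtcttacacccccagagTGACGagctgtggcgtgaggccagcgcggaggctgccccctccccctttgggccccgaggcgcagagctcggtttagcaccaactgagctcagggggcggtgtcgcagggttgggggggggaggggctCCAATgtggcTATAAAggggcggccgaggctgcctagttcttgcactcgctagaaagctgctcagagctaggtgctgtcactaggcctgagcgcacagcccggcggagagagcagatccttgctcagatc
*Dnaja4* chr8:63981337-63981636 (+): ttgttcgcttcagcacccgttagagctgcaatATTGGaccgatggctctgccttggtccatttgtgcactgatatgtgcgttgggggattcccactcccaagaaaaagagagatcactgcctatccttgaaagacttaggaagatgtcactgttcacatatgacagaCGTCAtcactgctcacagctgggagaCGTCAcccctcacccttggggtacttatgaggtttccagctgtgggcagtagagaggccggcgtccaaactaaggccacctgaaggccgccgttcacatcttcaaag
*Agtr1a* chr17:34435383-34435682 (-): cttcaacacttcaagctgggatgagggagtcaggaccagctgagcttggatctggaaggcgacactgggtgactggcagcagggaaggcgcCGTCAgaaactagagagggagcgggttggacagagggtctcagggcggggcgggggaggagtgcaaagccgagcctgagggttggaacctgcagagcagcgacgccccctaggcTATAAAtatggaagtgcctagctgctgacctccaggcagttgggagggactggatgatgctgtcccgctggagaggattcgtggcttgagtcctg

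The table of promoters matched 19 peaking and 16 dipping genes. TGACG on either strand was found in 8 of the 16 dipping promoters (50.0%), those of *Adamts1*, *Bambi*, *Camk2n2*, *Dnaja4*, *Fbxo2*, *Ldha*, *Pdxp* and *Rnf39*, and in 1 of the 19 peaking promoters (5.26%), that of *Agtr1a*. The share was 22.0% of all 27457 promoters and 29.2% of the 3715 promoters of genes with values in all 15 samples. The whole element TGACGTCA, which contains TGACG, was in 1 dipping promoter, that of *Ldha*, and in 3.42% of the 3715. The E-box CACGTG was in those of *Ldha* and *Hopx*, in no peaking promoter, and in 8.13% of the 3715. On either strand, TATAAA was in 4 dipping and 2 peaking promoters (25.0% and 10.5%, beside 7.91%; on the strand of the gene in 3 and 2, as that of *Ifitm2* holds the reverse complement only), CCAAT in 6 and 5 (37.5% and 26.3%, beside 38.6%), and the AP-1 letters TGAGTCA in 1 dipping promoter, that of *Slc16a3* (6.25%, beside 3.69%). The median GC content was 65.7% in dipping, 57.3% in peaking and 61.0% in the 3715 promoters. These are counts of letters in short windows of few genes and not binding sites.

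The peaking genes include receptors of peptides and of serotonin. *Mas1*, which encodes the receptor of angiotensin-(1-7), had the largest smaller ratio among the peaking genes with a gene symbol, 5.60 for HYP over PCC. *Mas1* read 0.0478, 0.0739, 0.0254, 0.0283 and 0.132 FPKM across the WT samples, 1.02, 1.78, 0.921, 1.11 and 1.44 across HYP and 0.336, 0.231, 0.214, 0.0539 and 0.284 across PCC. No HYP sample overlapped with another group, although the WT values rest on 1 to 5 reads each and the HYP values on 30 to 60. *Agtr1a*, the type 1 angiotensin II receptor, was at 7.34, 7.57, 5.01, 5.94 and 6.17 FPKM in WT samples, 6.65, 17.7, 12.2, 12.7 and 12.4 in HYP samples and 6.96, 7.03, 7.38, 8.60 and 8.08 in PCC samples. Here HYP1 lay within the WT range and HYP2 was the highest. *Npy2r*, a receptor of neuropeptide Y, had 1 to 3 reads in each WT sample, 9 to 43 in HYP and 2 to 18 in PCC, with means of 1.11 ± 0.579 FPKM in HYP and 0.393 ± 0.242 in PCC (SD, n = 5), and the HYP and PCC samples overlapped. *Htr1b*, an inhibitory serotonin receptor, had 0.465, 1.25, 0.494, 0.477 and 0.342 FPKM in WT samples, 1.58, 4.04, 1.95, 3.97 and 3.69 in HYP samples and 0.982, 1.54, 1.46, 0.629 and 1.78 in PCC samples. The lowest HYP value, in HYP1, lay below the highest PCC value. *Htr1b* was the 1 gene of the set in the list of neurotransmitter receptors, of which 4 were in both comparisons.

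They also include receptors of growth and trophic factors. *Egfr*, the epidermal growth factor receptor, had a mean of 0.957 ± 0.394 FPKM in WT, one of 2.30 ± 1.26 in HYP and one of 0.639 ± 0.210 in PCC, and its HYP samples ran from 0.754 in HYP1, within the WT range, to 4.12 in HYP5. *Pdgfra*, a platelet-derived growth factor receptor of mesenchymal cells, had 0.922 ± 0.120, 1.67 ± 0.460 and 0.723 ± 0.524 FPKM (SD, n = 5), and again HYP1 lay among the WT samples. *Gfra3*, the artemin co-receptor found on Schwann cells and sensory neurons, read 0.451, 2.97, 0.547, 0.711 and 0.569 FPKM across the WT samples, 2.38, 3.87, 2.01, 2.46 and 3.80 across HYP and 0.189, 1.25, 1.27, 0.944 and 2.19 across PCC. WT2 and PCC5 lay within the HYP range, and all other WT and PCC samples below it. *Epha4*, an ephrin receptor of axon guidance, had means of 4.18 ± 2.10, 9.99 ± 3.50 and 6.35 ± 2.52 FPKM at the 3 stages. All 3 groups overlapped in this gene.

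*Slit1*, *Igsf21* and *Nrxn2* act in axon guidance or at synapses. *Slit1*, a secreted ligand of Robo receptors, was at 1.33, 1.42, 1.73, 1.15 and 0.200 FPKM in WT samples, 2.87, 3.87, 3.18, 5.68 and 8.38 in HYP samples and 2.30, 0.559, 1.44, 0.600 and 2.50 in PCC samples. All HYP samples were above all others, HYP5 most of all. Of the list of neurotrophic and guidance genes 9 were in both comparisons, of which *Epha4*, *Gfra3* and *Slit1* peaked and *Sema3a* dipped. *Igsf21*, a synaptic adhesion molecule of the immunoglobulin superfamily, read 0.259, 0.267, 0.183, 0.256 and 0.0477 FPKM across the WT samples, 4.42, 6.50, 3.22, 7.33 and 6.25 across HYP and 1.25, 6.06, 1.40, 1.56 and 3.04 across PCC. WT values rest on 1 to 6 reads, every HYP and PCC sample was above every WT sample, and PCC2 reached into the HYP range. *Nrxn2*, a presynaptic neurexin, had means of 0.836 ± 0.375, 2.39 ± 0.490 and 1.35 ± 0.666 FPKM, with PCC5 above 3 of the 5 HYP samples.

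Further peaking genes encode a transporter, a transcription factor and proteins that respond to calcium or nitric oxide. *Slc6a2*, the noradrenaline transporter, was the most abundant peaking gene, with 78.7, 77.2, 46.3, 29.0 and 5.95 FPKM in WT samples, 169, 337, 175, 202 and 307 in HYP samples and 49.8, 165, 135, 46.6 and 235 in PCC samples. All HYP samples were above all WT samples, while PCC5 lay within the HYP range and PCC1 and PCC4 within the WT range. *Tfap2b*, a neural crest transcription factor, read 17.1, 13.4, 9.00, 5.43 and 1.45 FPKM across the WT samples, 19.2, 36.5, 21.1, 27.0 and 35.5 across HYP and 13.9, 18.6, 9.73, 1.91 and 14.2 across PCC. The lowest HYP sample was above the highest of the rest, by a small margin over PCC2. *Calb1*, the calcium-binding protein calbindin, was at 5.03, 6.35, 3.65, 2.75 and 1.30 FPKM in WT samples, 18.9, 35.2, 19.7, 27.4 and 34.5 in HYP samples and 15.2, 6.60, 8.51, 2.93 and 15.1 in PCC samples. Its lowest HYP sample was above PCC1, the highest of the rest. The copines *Cpne6* and *Cpne9*, which bind membranes in response to calcium, both had all HYP samples above all others: *Cpne9* had 5.09, 7.56, 4.37, 4.37 and 0.960 FPKM in WT samples, 14.8, 14.2, 12.5, 14.5 and 16.7 in HYP samples and 3.66, 3.35, 4.22, 2.88 and 7.53 in PCC samples. *Cpne6* had means of 0.884 ± 0.725, 2.88 ± 0.627 and 0.568 ± 0.421 FPKM. *Gucy1a3*, a subunit of the nitric oxide receptor guanylate cyclase, had 13.5 ± 6.38, 28.5 ± 6.06 and 11.9 ± 4.50 FPKM, without overlap. *Vwa3a*, which encodes a von Willebrand factor A domain protein, had 1.02 ± 0.347, 2.89 ± 0.771 and 0.757 ± 0.498 FPKM, and *Zcchc24*, of a zinc finger protein, 4.81 ± 0.739, 13.2 ± 5.30 and 5.18 ± 2.24. *Tnnt2*, cardiac troponin T, had 4.36 ± 2.87, 14.3 ± 3.24 and 5.49 ± 2.74 FPKM and did not overlap either.

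**Figure D3:**
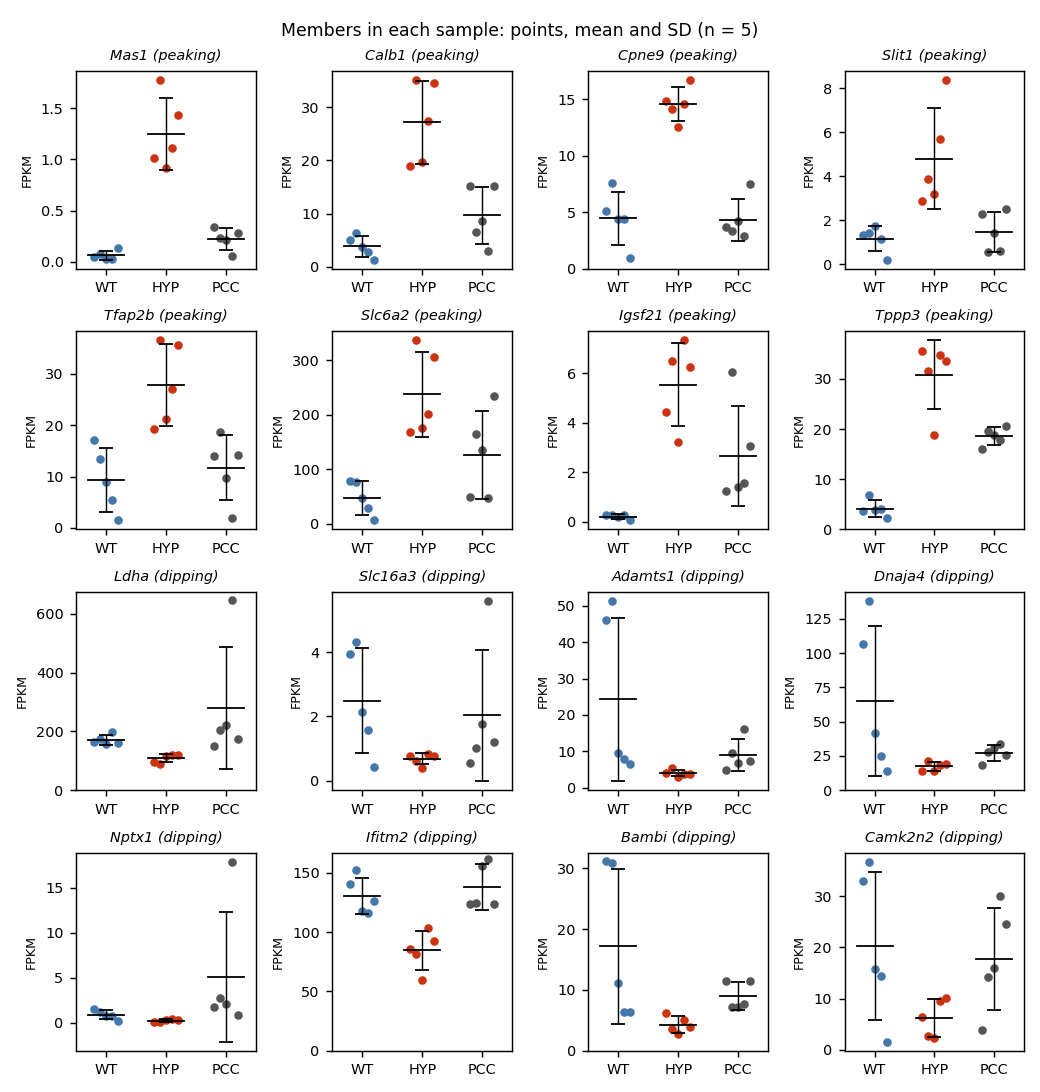
FPKM of 16 genes in each WT, HYP and PCC sample (n = 5 per group), with the mean and SD as bars. In *Mas1*, *Calb1*, *Cpne9*, *Slit1* and *Tfap2b* all 5 HYP points lie above the other 10, in *Ldha*, *Ifitm2* and *Bambi* below, and PCC4 is the highest PCC point of *Ldha*, *Slc16a3* and *Nptx1*.

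Other peaking genes are known from connective tissue and other cells. *Cilp*, a cartilage matrix protein that binds TGF-beta, read 1.40, 2.76, 1.42, 1.15 and 0.319 FPKM across the WT samples, 7.50, 18.3, 7.19, 16.0 and 18.5 across HYP and 1.24, 8.93, 4.03, 3.95 and 7.98 across PCC, and PCC2 and PCC5 lay above the lowest HYP samples. *Sostdc1*, a secreted inhibitor of BMP and Wnt signals, had 3.03, 9.48, 4.76, 2.82 and 3.13 FPKM in HYP against 0.433, 1.09, 0.172, 0.480 and 0.209 in WT and 0.952, 2.06, 3.99, 0.976 and 3.27 in PCC, with HYP2 far above the others. *Col14a1*, a collagen, had means of 0.602 ± 0.186, 1.37 ± 0.464 and 0.645 ± 0.389 FPKM. The list of fibroblast and matrix genes had 4 genes in both comparisons, and *Col14a1* and *Pdgfra* were in the set. The other 11 fibroblast and matrix genes had a level of 0.977 ± 0.251 (WT), 2.23 ± 0.338 (HYP) and 2.71 ± 1.01 (PCC), as mean and SD of 5 samples. HYP against PCC gave an exact permutation p of 0.413 (adjusted p = 0.450). That of 13 Schwann and sustentacular genes was 0.994 ± 0.316, 2.13 ± 0.406 and 2.38 ± 1.06, with p = 0.714 for HYP against PCC (two-sided exact permutation tests, adjusted p = 0.745). With the genes of the set, 13 of 33 fibroblast and 14 of 21 Schwann symbols had values in all 15 samples. Those too are only genes listed as changed in at least 2 of the 3 comparisons. The part of these cells in the values of *Gfra3*, *Col14a1* and *Pdgfra* was not tested. *Gbp5*, an interferon-induced GTPase, had means of 4.01 ± 1.49, 7.85 ± 2.85 and 2.91 ± 0.984 FPKM, as the 1 gene of the set among 5 interferon genes in both comparisons. *Tppp3*, a tubulin-binding protein, was at 3.66, 6.85, 3.84, 3.98 and 2.21 FPKM in WT samples, 35.5, 31.5, 18.8, 34.7 and 33.5 in HYP samples and 16.0, 19.7, 18.9, 17.8 and 20.5 in PCC samples. Apart from HYP3, the HYP samples of *Tppp3* were above all PCC samples, and all PCC samples were above all WT samples.

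Division of every FPKM value by the chromaffin marker level of its sample, a setting chosen after the data were seen, left 17 of the 47 peaking genes and 10 of the 27 dipping genes in their class, and with it 32 genes in all met the rule for dipping. The chromaffin level moves with stage, and its part in the pattern was not tested further.

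Some peaking genes were high in a few animals only. LOC100912228 read 61.4 FPKM in HYP1 and 46.6 in HYP3, and 1.48 to 2.27 in the other HYP samples, which lies within the range of WT. For LOC100909593, the sample HYP5 held 64.2% of the summed HYP FPKM. AABR07066020.1 had 91, 26 and 71 reads in HYP1, HYP4 and HYP5, at most 3 in the other HYP and WT samples and at most 1 in PCC. These genes, LOC100912228 and AABR07066020.1 named after their values were seen, show differences between animals of the HYP group. The miRNA gene AABR07015079.1, which dipped, had 1 read in HYP5 and 0 in the other HYP samples, against 0 to 12 in WT and 1 to 10 in PCC. *Eif3h* and *Rpl39* are listed on chromosomes 6 and 14, whereas RefSeq places the genes of these symbols on other chromosomes, so that reads of near-identical copies may be shared and their values are uncertain.

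The dipping genes include a pair that acts on lactate. *Ldha*, the lactate dehydrogenase subunit that turns pyruvate into lactate, had the highest FPKM of the dipping genes. *Ldha* read 164, 174, 156, 197 and 162 FPKM across the WT samples, 96.7, 90.0, 116, 119.8 and 119.8 across HYP and 151, 205, 222, 646 and 175 across PCC. Every HYP sample was below every other sample, and PCC4 was far above the other PCC samples. *Slc16a3*, the lactate exporter MCT4, had 3.96, 4.32, 2.15, 1.59 and 0.427 FPKM in WT samples, 0.775, 0.622, 0.409, 0.829 and 0.785 in HYP samples and 0.540, 1.02, 1.78, 5.59 and 1.22 in PCC samples. WT5 was at the level of HYP, PCC1 too, and PCC4 was again the highest PCC sample. *Ldha* and *Slc16a3* were 2 of the 7 glycolysis genes in both comparisons, and no other gene of that list met the rule. *Slc16a3* (chr10:110138586-110148358, Rn06) and the peaking gene *Cd7* (chr10:110229922-110232843), a lymphocyte surface protein, lie 81.6 kb apart. *Cd7* had means of 0.646 ± 0.350, 2.83 ± 0.425 and 1.58 ± 0.828 FPKM.

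Several dipping genes were high in WT1 and WT2. *Adamts1*, a secreted metalloprotease, had 46.1, 51.3, 9.55, 7.86 and 6.44 FPKM in WT samples, 4.09, 5.34, 3.08, 3.71 and 3.81 in HYP samples and 4.85, 9.65, 6.86, 16.2 and 7.22 in PCC samples. WT1 and WT2 were far above the other WT samples. *Dnaja4*, a co-chaperone of the Hsp40 family, had 107, 138, 41.6, 24.6 and 13.8 FPKM in WT samples, 13.8, 21.5, 13.8, 18.3 and 19.0 in HYP samples and 18.2, 27.8, 31.0, 33.4 and 25.6 in PCC samples, with the same 2 WT samples on top and WT5 at the level of the lowest HYP samples. *Bambi*, a decoy receptor of the TGF-beta family, had 31.2, 30.9, 11.1, 6.31 and 6.39 FPKM in WT samples, 6.22, 3.52, 2.76, 5.11 and 3.95 in HYP samples and 11.5, 7.12, 7.27, 7.78 and 11.6 in PCC samples, and all HYP samples were the lowest by a small margin. WT1 or WT2 was the highest WT sample in 22 of the 27 dipping genes and in 36 of the 47 peaking genes. *Camk2n2*, an inhibitor of CaM kinase II, read 33.1, 36.8, 15.7, 14.5 and 1.55 FPKM across the WT samples, 6.45, 2.69, 2.36, 9.52 and 10.1 across HYP and 3.90, 14.3, 16.0, 30.0 and 24.6 across PCC, with the lowest value of all in WT5.

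Other dipping genes act in neurons and signalling. *Nptx1*, a neuronal pentraxin of synapses, read 1.47, 1.19, 0.740, 0.777 and 0.167 FPKM across the WT samples, 0.111, 0.113, 0.286, 0.368 and 0.304 across HYP and 1.75, 2.77, 2.10, 17.9 and 0.882 across PCC. PCC4 was far above the next PCC sample and WT5 was within the HYP range. *Cdh24*, a cadherin, had means of 69.5 ± 31.1, 31.8 ± 4.94 and 68.3 ± 29.4 FPKM. *Spry4*, a feedback inhibitor of receptor tyrosine kinases, had 5.95 ± 2.51, 2.97 ± 0.614 and 6.03 ± 1.20 FPKM, so that in the growth factor list, with 7 genes in both comparisons, *Egfr* peaked and *Spry4* dipped. *Sema3a*, a repellent of growing axons, was low throughout, with 1.21 ± 0.498, 0.795 ± 0.0685 and 1.81 ± 1.13 FPKM. *Pomc*, the precursor of ACTH and beta-endorphin, was highest in PCC2 (49.0 FPKM) and had 3.41 ± 2.78, 1.74 ± 0.523 and 15.1 ± 19.5 FPKM. *Fbxo2*, a ubiquitin ligase subunit for glycoproteins, had 8.96 ± 3.75, 3.77 ± 1.35 and 9.85 ± 2.79 FPKM. *Elfn2*, a postsynaptic leucine-rich repeat protein, had 2.23 ± 0.557, 1.02 ± 0.459 and 3.33 ± 1.83, *Fndc5*, the precursor of irisin, 1.10 ± 0.571, 0.530 ± 0.185 and 1.57 ± 0.750, and *Fam134b*, a receptor of endoplasmic reticulum autophagy, 1.05 ± 0.785, 0.456 ± 0.190 and 2.03 ± 1.66 FPKM.

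Among dipping genes of immunity and survival, *Ifitm2*, an interferon-induced membrane protein, read 140.2, 152, 118, 116 and 126 FPKM across the WT samples, 85.7, 81.8, 59.4, 103 and 92.7 across HYP and 124, 125, 156, 162 and 124 across PCC. All HYP samples were below all others. *Bok*, a pro-apoptotic member of the Bcl-2 family, had 63.4 ± 9.37, 39.4 ± 8.35 and 71.2 ± 19.0 FPKM. *RT1-DMb*, a class II histocompatibility gene with close paralogs, had 1 to 7 reads in HYP, but also 0 in WT2 and 6 to 17 in 3 PCC samples, and may share reads with its relatives. No gene of the cell cycle list (26 in both comparisons), the chromaffin list (7) or the cortex list (7) was in the set. The set is 74 of 1346 genes, so nothing is read from these absences. The chromaffin list does not hold *Slc6a2*, which peaked.

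PCC vs. WT is the comparison that the rule did not use directly, although both means entered it. Since the rule asks that both groups lie on the same side of HYP, nothing is read from the number of calls or the median size of the changes. Of the 70 genes tested with edgeR's quasi-likelihood test, 11 were called at an adjusted p under 0.05: 7 of 44 peaking and 4 of 26 dipping genes. Over all genes tested the share was 92.9%, and 93.9% among the genes listed in both comparisons, most of which the authors had listed as changed. For PCC vs. WT the authors had listed 5 of the peaking and 6 of the dipping genes. *Cilp*, *Igsf21* and *Sostdc1*, called here, were among these, whereas *Mas1* and *Calb1*, also called here, were not. *Egfr* was listed by the authors but not called here (adjusted p = 0.216). The log2 fold change had a median size of 0.52 in peaking and 0.38 in dipping genes, and of 1.49 over all genes tested.

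All 7 called peaking genes were higher in PCC than in WT. Their PCC means lay between those of WT and HYP, which the rule fixes for any peaking gene with a higher mean in PCC than in WT. *Igsf21* was higher by 3.40 ± 0.48 on the log2 scale (log2 fold change ± SE, adjusted p = 5.52e-05), *Tppp3* by 1.95 ± 0.23 (adjusted p = 1.28e-05) and *Sostdc1* by 1.99 ± 0.52 (adjusted p = 0.00691). These 3 calls held in every alternative in which the gene was tested. *Cilp* (1.65 ± 0.47, adjusted p = 0.0123) was called in 14 of 18 alternatives, *Mas1* (1.59 ± 0.54, adjusted p = 0.0392) in 6 of 15, *Calb1* (1.20 ± 0.42, adjusted p = 0.0433) in 6 of 18 and *Rassf4* (0.82 ± 0.25, adjusted p = 0.0223), a member of the Ras association domain family, in 7 of 18. *Cilp* lost its call without WT4, PCC2 or PCC5. *Mas1* lost it without WT1, WT2, WT3, WT4, PCC1, PCC2, PCC3 or PCC5, *Calb1* without WT1, WT3, WT4, WT5, PCC1, PCC2, PCC3 or PCC5, and *Rassf4* without the same samples as *Calb1*. With the authors' size factors *Cilp*, *Calb1* and *Rassf4* lost their calls too, and with DESeq2 *Mas1*, *Calb1* and *Rassf4*. The calls of *Calb1* and *Rassf4* were also lost with the WT and PCC samples only, and that of *Calb1* with the replicate block. The adjusted p over the alternatives reached 0.152 for *Mas1*, 0.335 for *Calb1*, 0.194 for *Rassf4* and 0.0675 for *Cilp*. No peaking gene was called lower (0, with 1 at an unadjusted p under 0.05 and 2 called by DESeq2). *Slc6a2* differed by 1.22 ± 0.51 (adjusted p = 0.107) and *Npy2r* by 1.56 ± 0.57 (adjusted p = 0.0558), and neither passed the threshold.

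**Figure D4:**
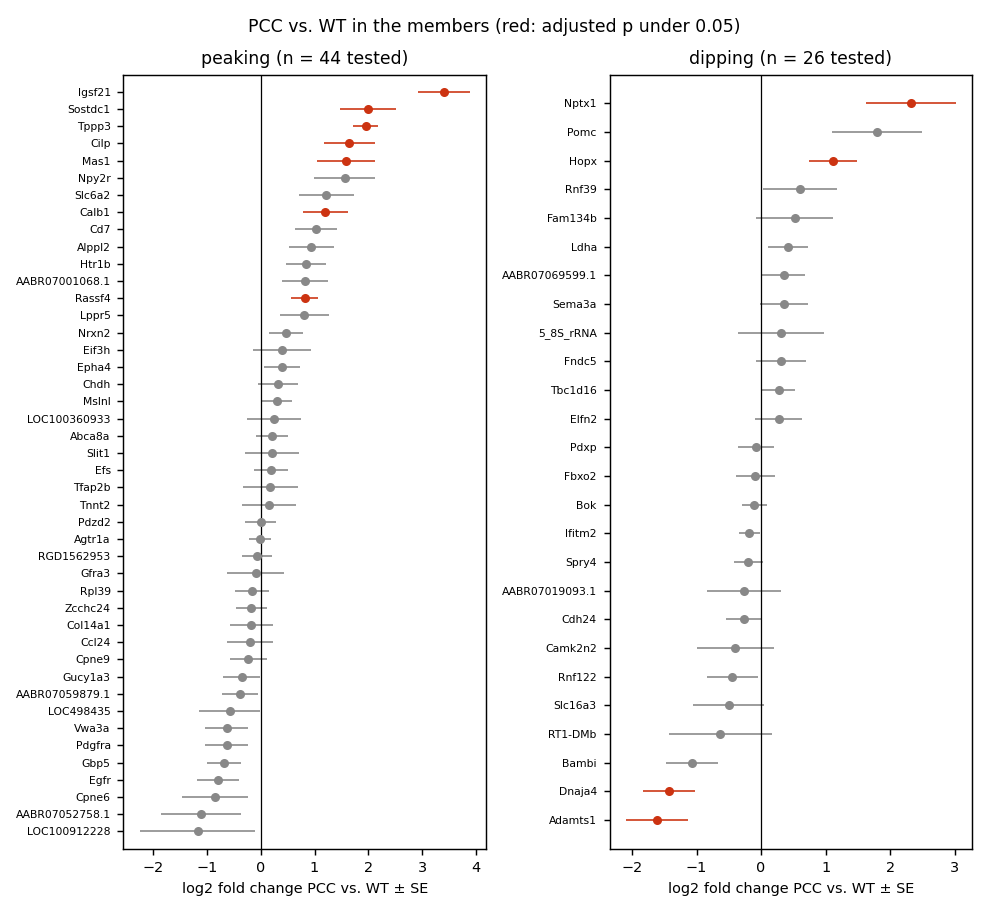
Log2 fold change of PCC vs. WT with its SE for the 44 peaking (left) and 26 dipping (right) genes tested, ordered by size, with genes at an adjusted p under 0.05 in red. The 7 red peaking genes are all to the right of 0, from *Rassf4* at 0.82 to *Igsf21* at 3.40, and the 4 red dipping genes lie on both sides.

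Of the dipping genes, 2 were called higher and 2 lower in PCC than in WT. *Adamts1* differed by -1.61 ± 0.48 on the log2 scale, lower in PCC (adjusted p = 0.0165) and *Dnaja4* by -1.42 ± 0.40 (adjusted p = 0.0124). The *Adamts1* call was lost without WT1 (log2 fold change -1.40) and without WT2 (-1.31), and also with the authors' size factors and with the WT and PCC samples only. Both calls were lost on library totals and with the replicate block. The adjusted p over the alternatives was at most 0.0660 for *Adamts1* and 0.0652 for *Dnaja4*. *Nptx1* (2.32 ± 0.70, adjusted p = 0.0183) and *Hopx* (1.11 ± 0.37, adjusted p = 0.0358), a homeodomain-only protein, were higher. Without PCC4 neither was called, with *Nptx1* at 0.82 (adjusted p = 0.377) and *Hopx* at 0.52 (adjusted p = 0.379), and over the alternatives the adjusted p reached 0.630 and 0.751. The *Nptx1* call was also lost without WT3, WT4 or WT5, and the *Hopx* call without any 1 WT sample, PCC1 or PCC2. Neither gene was called with the authors' size factors or with the WT and PCC samples only. The *Nptx1* call was lost with the replicate block as well, and the *Hopx* call with DESeq2. *Pomc* differed by 1.79 ± 0.69 (adjusted p = 0.0754), *Bambi* by -1.07 ± 0.40 (adjusted p = 0.0662) and *Ldha* by 0.42 ± 0.31 (adjusted p = 0.728), none of which passed the threshold. The 59 genes not called are not shown to be equal in PCC and WT.

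**Figure D5:**
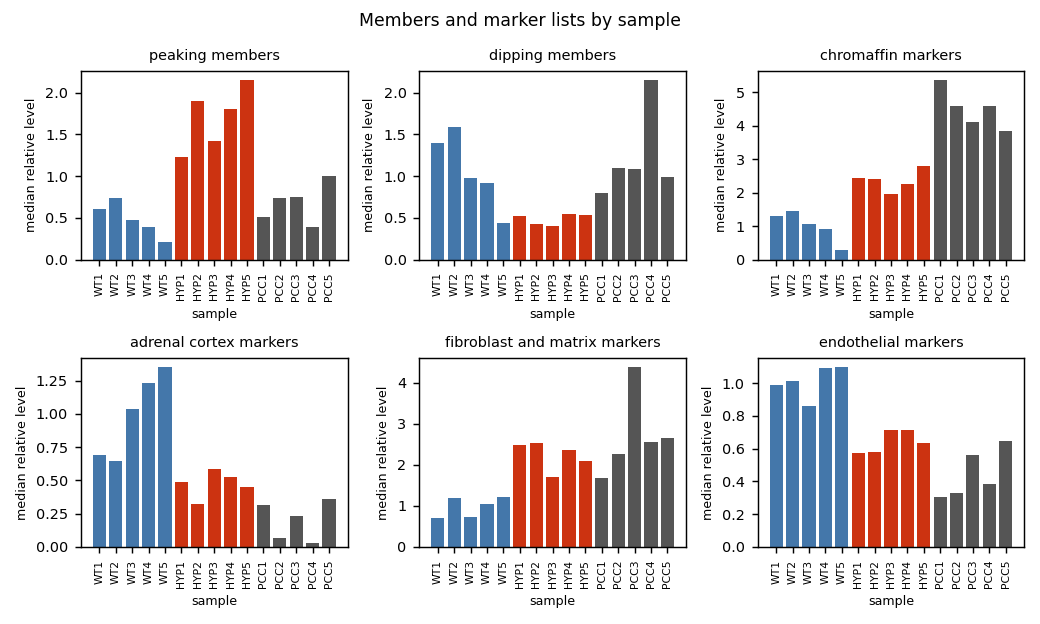
Median relative level by sample of the peaking and dipping genes (FPKM divided by the mean of all 15 samples) and of 4 marker lists (CPM divided by the WT mean). Chromaffin markers rise from WT to PCC, peaking genes are at 1.23 to 2.15 in HYP and at 0.216 to 1.01 elsewhere, and WT5 has the lowest chromaffin level.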

How the data were processed

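Adrenal medullary RNA of 15 rats (5 WT, 5 HYP, 5 PCC, separate animals) was sequenced as poly(A) libraries. The submitters' processing notes name HISAT2 2.0.5 and featureCounts 1.5.0-p3, and the methods the rat genome Rn06 and DESeq2. A table for each of the 3 group pairs was deposited, and lists only genes the authors had called changed. The read counts per gene were deposited by the authors without normalization. The FPKM values were computed by the authors. In PCC1, the sample checked, they fit the listed gene length within 0.1% for 72.5% of the genes listed for PCC vs. WT with more than 20 counts. The normalized signal values deposited by the authors are counts divided by a size factor. The p-values of the authors' own comparison served only to recover the number of genes tested (18790 for PCC vs. WT), and their log2 fold changes were not used.

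Library totals (16315018 to 23831269 reads) were recovered from counts and FPKM of genes with more than 20 counts. PCC vs. WT was tested with edgeR 4.0.16 (glmQLFit, glmQLFTest, TMM, filterByExpr) in R 4.3.3 on the 5492 genes with counts in all 15 samples, all samples in 1 fit, contrast PCC minus WT. These genes were all listed as changed in at least 2 of the 3 comparisons, and 92.9% of those tested were called. TMM takes most genes as unchanged, so the zero point of the fold changes is uncertain. The Benjamini-Hochberg adjustment ran over 18790 genes, which makes adjusted p-values upper bounds, and genes were called under 0.05. HYP vs. WT and PCC vs. HYP chose the genes and were not tested. Marker lists were compared as the median over genes of CPM divided by the WT mean, with two-sided exact permutation tests (5 against 5, smallest p 0.0079). Only list genes with values in all 15 samples entered, so markers without a listed change were left out. Groups came from the sample labels. Alternatives were another measure, fold limit, floor, group median, scaling, filter, tool (DESeq2 1.42.0), sample set and replicate block, and each sample left out. The edgeR script was tested on simulated data. Python 3.11.15 with pandas 2.3.3, numpy 2.4.6, scipy 1.17.1 and matplotlib 3.10.9 did the rest.

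The genes and lists were chosen with earlier results of these data known. Named are the 12 peaking and 12 dipping genes with a gene symbol and the largest smaller ratio, members of the lists, the 5 largest called PCC vs. WT changes in each direction, the 3 genes on each side of the limit, and genes in which 1 HYP sample holds over 60% of the HYP sum. Other genes were named after their values were seen. The endothelial, pericyte, macrophage and granulocyte lists were also levelled, and the lymphocyte, erythroid, adipocyte and skeletal muscle lists had under 3 genes. Strand-specific counting is not stated in the sources used here.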

Additional observations from a re-analysis of the deposited data

Results flagged for a closer look

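In 12 of the 180 sets of 5 values examined (60 genes with a symbol in 3 groups), 1 sample lay far from the other 4 by Dixon's criterion. For normally distributed values chance alone gives this in about 1 of 20 sets, so the number flagged is near that of chance. PCC4 stood apart in 5 of the 12 flagged sets. It was far above the other PCC samples in *Ldha* (646 FPKM, next 222), *Nptx1* (17.9, next 2.77) and *Slc16a3* (5.59, next 1.78), and far below them in *Gucy1a3* (4.13, next 12.4) and *Gbp5* (1.16, next 3.27).

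WT2 was far above the other WT samples in *Gfra3* (2.97 FPKM, next 0.711), *Htr1b* (1.25, next 0.494) and *Alppl2* (4.23, next 1.73). PCC5 was far above the other PCC samples in *Cpne9* (7.53, next 4.22) and *Chdh* (1.82, next 0.987). *Pomc* was far higher in PCC2 (49.0, next 14.5), and *Tppp3* far lower in HYP3 than in the other HYP samples (18.8, next 31.5).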

How the results depend on the processing

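Of 47 peaking and 27 dipping genes, a fold limit of 2 left 33 and 15, and group medians gave 44 and 24. FPKM on the TMM scale gave 50 and 32, and no floor 57 and 31. Each sample left out in turn gave 43 to 50 and 25 to 30. Divided by the chromaffin level, 17 and 32 genes met the rule. Peaking genes without overlap numbered 17 and, without HYP1, 27, and dipping ones 5, with 9 without WT5, 9 without HYP1 and 8 without PCC1.

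For PCC vs. WT, 7 peaking genes were called higher, 3 with the authors' size factors, 4 each with at least 10 counts, with WT and PCC samples only and with DESeq2, and 3 to 9 with a sample left out. Peaking genes called lower were 0, 2 with DESeq2 and 0 to 2 with a sample left out. The 2 dipping genes called higher became 0 with the authors' size factors, with WT and PCC only and without WT5 and PCC4 together, 1 with DESeq2, and 0 to 3 with a sample left out. The 2 called lower became 0 on library totals, 1 with the authors' size factors and with WT and PCC only, 5 without WT5 and PCC4 together, and 1 to 3 with a sample left out. Library totals shift PCC vs. WT by 0.26 (log2) against TMM. The cause of these changes was not tested.

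Same-numbered samples correlated by -0.22 to 0.24, and 4 of the 10 WT and PCC samples correlated best with their own number in the other group. These values do not decide whether same-numbered samples share more than a number. With the replicate block, 6 peaking genes were called higher, and 1 dipping gene higher and 0 lower. The Schwann and sustentacular level of PCC minus HYP was 0.250, and between -0.177 (without PCC3) and 0.522 with a sample left out. Genes with under 10 reads in a group limit the precision of *Mas1*, *Npy2r* and *Igsf21*, and genes absent from 2 of the 3 tables were not analysed here.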

Other observations

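Markers of other cells that the authors had listed as changed in at least 2 of the 3 comparisons moved between the stages as well. They were 9 of 20 endothelial, 4 of 14 pericyte and smooth muscle, 3 of 25 macrophage and 4 of 17 granulocyte and mast cell symbols. Markers without such a change could not enter. The level of 9 endothelial genes was 1.01 ± 0.0961 (WT), 0.642 ± 0.0688 (HYP) and 0.444 ± 0.151 (PCC), as mean and SD of 5 samples, with p = 0.0079 for WT against HYP and p = 0.0476 for HYP against PCC (two-sided exact permutation tests, adjusted p = 0.0147 and 0.0571). The 4 pericyte and smooth muscle genes were at 1.00 ± 0.233, 1.73 ± 0.481 and 4.15 ± 1.12. The 3 macrophage genes were at 1.00 ± 0.160, 2.51 ± 0.346 and 2.46 ± 1.22, with the lowest PCC level, 0.416, in PCC4. The 4 granulocyte and mast cell genes were at 0.788 ± 0.250, 3.73 ± 2.49 and 7.07 ± 4.26. None of these lists held a peaking or dipping gene. Only genes in both comparisons could be taken, and nothing is read from their absence. Such genes were 2 endothelial, 2 pericyte and smooth muscle, 1 macrophage and 0 granulocyte and mast cell genes.

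Of pairs of neighbouring genes of the set on a chromosome, 8 lay under 1 Mb apart, among them *Igsf21* and AABR07050265.1, which both peaked and lie 91.8 kb apart on chromosome 5. AABR07050265.1 had 0 reads in all WT samples, 4 to 13 in HYP and 0 to 4 in PCC.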
